A study of Mus musculus with 9 samples.

Results

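The R-spondin module of Wnt signalling was followed through 10 genes in mouse pluripotent cells. They are the R-spondin ligand genes Rspo1, Rspo2, Rspo3 and Rspo4, the receptor genes Lgr4, Lgr5 and Lgr6, the ubiquitin ligase genes Rnf43 and Znrf3, and Tnfrsf19, which encodes a membrane protein found with Lgr5. They were chosen by symbol, and all 10 were among the 18193 genes measured. RNA was hybridised to 9 Affymetrix Mouse Genome 430 2.0 arrays, 3 biological replicates in each of 3 groups, all labelled with the strain C57BL/6. The first group was embryonic stem cells (ESCs, naive cells of the early embryo) grown on gelatine in N2B27 medium that held 1000 U/ml LIF together with 250 ng/ml of Wnt3a protein. The second was epiblast stem cells (EpiSCs, primed cells of the later epiblast) given IWP2, which blocks the acyltransferase Porcupine and thereby the secretion of Wnt proteins. The third was EpiSCs given vehicle. Both EpiSC groups grew on gelatine and serum in N2B27 medium whose added factors were Activin A, at 20 ng/ml, plus 12 ng/ml bFGF. ESCs and EpiSCs thus differed in cell type and medium at once, and only the ESC medium held added Wnt3a. How many cell lines were used, and the dose and duration of IWP2, are not stated in the labels. The protocol mentions Wnt3a given after IWP2, and no group here is labelled with it.

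R-spondins are secreted proteins that strengthen a Wnt signal without starting one. An R-spondin binds an Lgr receptor and, with its other face, the membrane ligase Rnf43 or Znrf3, and the complex is taken off the cell surface. Left in place, the ligases mark Frizzled receptors for breakdown, so that the cell hears less Wnt. Several of these genes, among them Lgr5, Rnf43, Znrf3 and Tnfrsf19, are known as Wnt targets in other tissues, the mouse intestine being the best studied.

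Values are log2 signals per probe set, so a difference of 1 is a 2-fold change. The lower quartile of all values was 3.72 and the median 5.24, and a signal near the lower quartile cannot be told from a gene that is silent. A difference against such a signal may therefore be smaller than the true change. Signals of different probe sets were not compared with each other. Genes with a limma adjusted p under 0.05 over all 18193 genes are called. Array medians lay between 5.221 and 5.261, and arrays of 1 group correlated at 0.9965 to 0.9976 across all probe sets. The actin 3' minus 5' signal, a sign of RNA quality, was 0.639 to 0.665 on ESC, 0.64 to 0.689 on IWP2 and 0.533 to 0.587 on vehicle arrays. The same measure on Gapdh was -0.04 to 0.004 on ESC, -0.032 to 0.002 on IWP2 and -0.055 to -0.025 on vehicle arrays, with overlap. The defining markers followed the labels. All 8 naive markers, led by Zfp42 (difference 10.44), were called higher in ESCs than in vehicle EpiSCs, and all 8 primed markers, with Sox4 at -6.17, were lower. Against IWP2-treated EpiSCs the same 8 and 8 were called, with Zfp42 at 10.51 and Sox4 at -6.49.

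**Figure D1:**
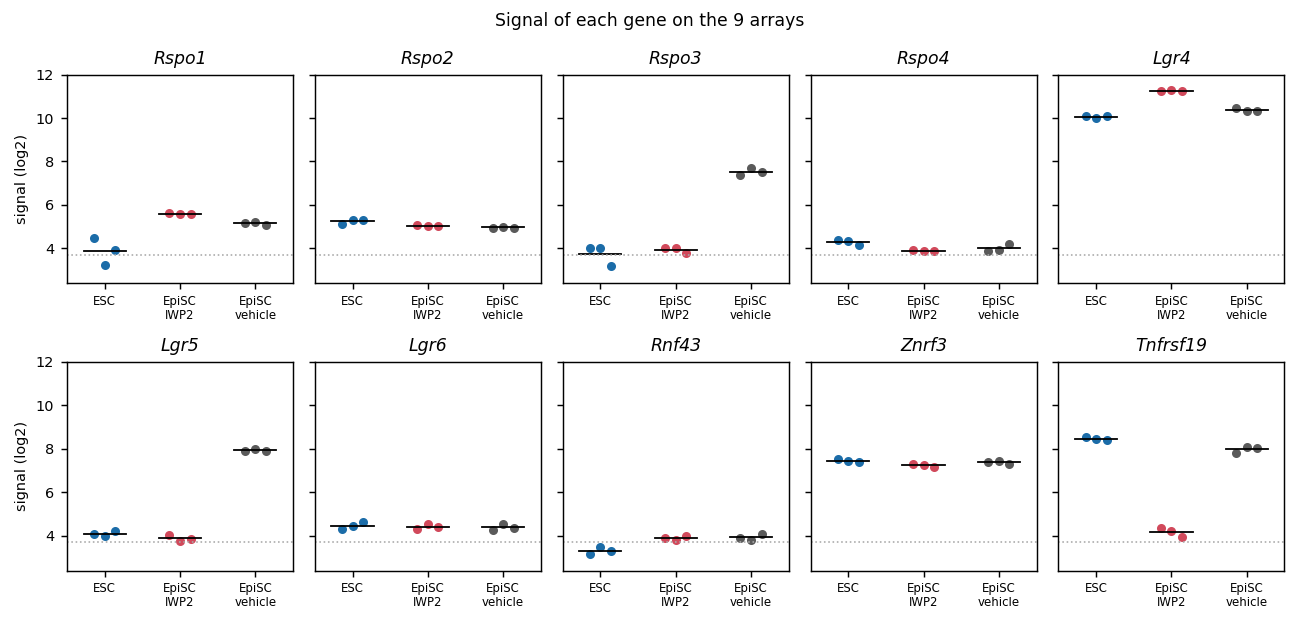
Signal (log2) of the 10 genes on each of the 9 arrays, with ESCs left, IWP2-treated EpiSCs in the middle and vehicle EpiSCs right. Points are arrays, black lines group means and the dotted line the lower quartile of all values (3.72). Rspo3 and Lgr5 stand high in vehicle EpiSCs alone, Tnfrsf19 is high in ESCs and vehicle EpiSCs, and Lgr4 is above 9.9 on every array.

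Among the ligands, Rspo3 alone was called with IWP2. Rspo3 (probe set 1455607_at), needed for vessel formation in the mouse placenta, had signals of 4.01, 4.01 and 3.21 in ESCs and of 4.01, 4.04 and 3.79 in IWP2-treated EpiSCs. In vehicle EpiSCs the signals were 7.39, 7.68 and 7.50, above every array of the other 2 groups. Rspo3 fell with IWP2 by 3.58 ± 0.19 (log2, SE), a factor of 11.9 (limma adjusted p = 7.3e-07). In ESCs it was lower than in vehicle EpiSCs (difference -3.78 ± 0.19, adjusted p = 6.41e-08). ESCs and IWP2-treated EpiSCs overlapped, and their difference of -0.20 (95% interval -0.64 to 0.23) was not called. Its mean was 3.75 ± 0.464 in ESCs and 3.95 ± 0.134 with IWP2 (SD, n = 3), close to the lower quartile.

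Rspo1, a factor of ovary determination in mammals, had its lowest signal in ESCs. It read 4.47, 3.22 and 3.95 in ESCs, 5.63, 5.57 and 5.57 in IWP2-treated EpiSCs, and 5.18, 5.20 and 5.09 in vehicle EpiSCs. The 3 groups did not overlap, and the ESC arrays were lowest and spread most (SD 0.63, against 0.034 with IWP2 and 0.057 with vehicle). ESCs were lower than IWP2-treated EpiSCs (difference -1.70 ± 0.24, limma adjusted p = 0.000131) and than vehicle EpiSCs (difference -1.28 ± 0.24, adjusted p = 0.00101). The second of these was -1.57 without ESC replicate 1 and -0.95 without ESC replicate 2. The difference between IWP2 and vehicle was 0.43 ± 0.24 and was not called when all 9 arrays shared a spread (adjusted p = 0.211). Fitted on the 6 EpiSC arrays alone, the same difference was called (limma adjusted p = 0.00114). It was also called in the fit without ESC replicate 2 (adjusted p = 0.0203).

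Rspo2, a ligand of limb and lung development in the mouse, varied little. Its signals were 5.13, 5.29 and 5.30 in ESCs, 5.08, 5.01 and 5.01 with IWP2, and 4.96, 5.0 and 4.96 with vehicle. It was called higher in ESCs than in vehicle EpiSCs (0.27 ± 0.06, limma adjusted p = 0.00361) and than in IWP2-treated EpiSCs (0.21 ± 0.06, adjusted p = 0.0147), sizes to be set against a median of 0.12 and 0.10 over all genes. The second call did not hold without ESC replicate 2 (adjusted p = 0.0547) or without ESC replicate 3 (adjusted p = 0.0566), nor with trended and robust variances in limma (adjusted p = 0.0778). Rspo4, whose human gene is required for nails, lay between 3.87 and 4.38 on all 9 arrays. It was called higher in ESCs than with IWP2 (0.38 ± 0.10, adjusted p = 0.00605) and than with vehicle (0.27 ± 0.10, adjusted p = 0.0295). These sizes too are to be set against medians of 0.10 and 0.12 over all genes. With quantile normalization repeated, the difference against IWP2 was 0.29 (limma adjusted p = 0.0252). The call against vehicle was lost without either of ESC replicates 1 and 2 and without either of vehicle replicates 1 and 2, with an adjusted p of up to 0.111 (without vehicle replicate 1). With IWP2 against vehicle, neither gene was called: the 95% intervals were -0.08 to 0.20 for Rspo2 and -0.32 to 0.11 for Rspo4.

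The receptors split. Lgr5 (probe set 1450988_at), the R-spondin receptor best known as a marker of intestinal stem cells, had signals of 4.08, 3.97 and 4.20 in ESCs and of 4.03, 3.74 and 3.87 with IWP2. In vehicle EpiSCs they were 7.91, 7.99 and 7.89, far above both other groups. The fall with IWP2 was 4.05 ± 0.09, a factor of 16.5, and ESCs differed from vehicle EpiSCs by -3.85 ± 0.09 (limma adjusted p of 1.63e-09 and 1.58e-10). Between ESCs and IWP2-treated EpiSCs the arrays overlapped and the difference of 0.20 (95% interval 0.01 to 0.39) was not called, with an adjusted p of 0.0665 in limma. It was called without IWP2 replicate 1 (0.27, adjusted p = 0.0193) and without ESC replicate 2 (0.26, adjusted p = 0.0372). It was also called as the mean of both Lgr5 probe sets (0.22, adjusted p = 0.0132), with median centring (0.21, adjusted p = 0.0477) and among genes above the median signal (0.20, adjusted p = 0.0431). On probe set 1450988_at the Lgr5 level was thus highest in vehicle EpiSCs, and the call between the other groups depends on these choices. Its means there, 4.08 in ESCs and 3.88 with IWP2, were close to the lower quartile, where a signal cannot be told from a silent gene.

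Lgr4 (probe set 1433891_at), the R-spondin receptor that most tissues express, rose with IWP2. Its signals were 10.07, 9.98 and 10.09 in ESCs, 11.25, 11.27 and 11.26 in IWP2-treated EpiSCs, and 10.45, 10.34 and 10.32 in vehicle EpiSCs. No groups overlapped, and each was called against each other group. The rise with IWP2 was 0.89 ± 0.06, a factor of 1.85 (limma adjusted p = 2.49e-06). ESCs were lower than IWP2-treated EpiSCs (difference -1.22 ± 0.06, adjusted p = 3.24e-08) and than vehicle EpiSCs (difference -0.33 ± 0.06, adjusted p = 0.000638). So Lgr4 and Lgr5 moved in opposite directions with IWP2 in the same cultures. Lgr6, a receptor of hair follicle stem cells in the mouse, lay between 4.27 and 4.64 on all 9 arrays. No comparison called it. The 95% intervals were -0.19 to 0.27 for ESCs minus IWP2-treated EpiSCs, -0.16 to 0.31 for ESCs minus vehicle EpiSCs and -0.20 to 0.27 for IWP2 minus vehicle.

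Neither ligase gene was called with IWP2. Znrf3 read 7.53, 7.44 and 7.38 in ESCs, 7.29, 7.27 and 7.16 with IWP2, and 7.41, 7.43 and 7.31 with vehicle. The IWP2 arrays lay below the vehicle arrays by a narrow margin (difference -0.14, 95% interval -0.29 to 0.00, limma adjusted p = 0.118). ESCs were called higher than IWP2-treated EpiSCs (0.21 ± 0.06, adjusted p = 0.0165) but not than vehicle EpiSCs (0.07, adjusted p = 0.377). The first of these calls was lost without ESC replicate 1 (adjusted p = 0.0649) or without IWP2 replicate 3 (adjusted p = 0.0618). Rnf43 was at the edge of detection, with 3.14, 3.50 and 3.31 in ESCs, 3.91, 3.81 and 3.97 with IWP2, and 3.90, 3.81 and 4.06 with vehicle. ESCs were below both EpiSC groups without overlap, with differences of -0.58 ± 0.10 against IWP2 and -0.61 ± 0.10 against vehicle (limma adjusted p of 0.000502 and 0.0004). The difference between IWP2 and vehicle was -0.02, with a 95% interval from -0.25 to 0.20. All ESC values of Rnf43 lie under the lower quartile of the arrays, so its level in ESCs is only known to be low.

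Tnfrsf19 (probe set 1448147_at), also called Troy, is a receptor of the tumour necrosis factor family that in mouse intestinal stem cells associates with Lgr5 and dampens Wnt signalling. It shared the fall of Lgr5 and Rspo3 with IWP2 but not their low level in ESCs. Signals were 8.53, 8.46 and 8.40 in ESCs, 4.36, 4.20 and 3.96 in IWP2-treated EpiSCs, and 7.79, 8.09 and 8.04 in vehicle EpiSCs. All 3 groups were apart, with the IWP2 arrays more than 3 units below the rest. The fall with IWP2 was 3.80 ± 0.11, a factor of 13.9 (limma adjusted p = 9.63e-09). ESCs were higher than IWP2-treated EpiSCs by 4.29 ± 0.11, a factor of 19.6 (adjusted p = 3.73e-10), and higher than vehicle EpiSCs by 0.49 ± 0.11 (adjusted p = 0.00297).

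RefSeq promoter windows on GRCm38.p6 were at hand for 6 of the 10 genes, 8 windows of 300 bases, each from 250 bases before to 50 after a gene start. For Rspo2, Rspo3, Lgr5 and Znrf3 no window was at hand, so they were not searched. The windows of Tnfrsf19 and Lgr4 are shown, because these genes moved in opposite directions with IWP2. Each window was searched on both strands for the core letters of Tcf/Lef sites, ATCAAAG and TTCAAAG. These differ in their first base, so that no match of 1 is a match of the other. Capitals mark a match. Tnfrsf19 has an outer start on the minus strand at chr14:61046806-61047105 and an inner start at chr14:61037938-61038237, and Lgr4 a start on the plus strand at chr2:109917397-109917696.
Tnfrsf19 outer start: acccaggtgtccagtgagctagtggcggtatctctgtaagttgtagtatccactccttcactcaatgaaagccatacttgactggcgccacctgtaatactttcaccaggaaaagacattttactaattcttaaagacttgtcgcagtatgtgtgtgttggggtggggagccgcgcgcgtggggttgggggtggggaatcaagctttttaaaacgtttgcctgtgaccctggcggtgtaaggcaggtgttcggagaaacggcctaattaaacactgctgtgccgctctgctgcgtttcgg
Tnfrsf19 inner start: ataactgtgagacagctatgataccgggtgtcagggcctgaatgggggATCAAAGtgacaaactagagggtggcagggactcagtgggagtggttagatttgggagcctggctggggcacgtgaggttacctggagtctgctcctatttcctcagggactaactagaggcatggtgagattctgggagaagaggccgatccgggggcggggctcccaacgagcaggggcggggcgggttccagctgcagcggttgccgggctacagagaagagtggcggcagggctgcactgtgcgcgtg
Lgr4 start: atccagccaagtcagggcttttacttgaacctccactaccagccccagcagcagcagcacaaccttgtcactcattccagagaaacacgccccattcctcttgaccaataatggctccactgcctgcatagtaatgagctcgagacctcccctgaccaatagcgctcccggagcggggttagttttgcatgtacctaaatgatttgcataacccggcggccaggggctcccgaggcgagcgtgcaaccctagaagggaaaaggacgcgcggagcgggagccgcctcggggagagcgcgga
The inner Tnfrsf19 window holds 1 match, ATCAAAG on the strand of the gene, beginning at position -202 relative to the gene start. The other 7 windows, of Tnfrsf19 (outer), Lgr4, Lgr6, Rnf43, Rspo1 and Rspo4, hold none. Of all 32851 windows in the table, 3.73% hold ATCAAAG, 5.14% TTCAAAG and 8.65% either, and a match is a description of the letters only. The windows' GC content ran from 44.3% to 71.0%.

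**Figure D2:**
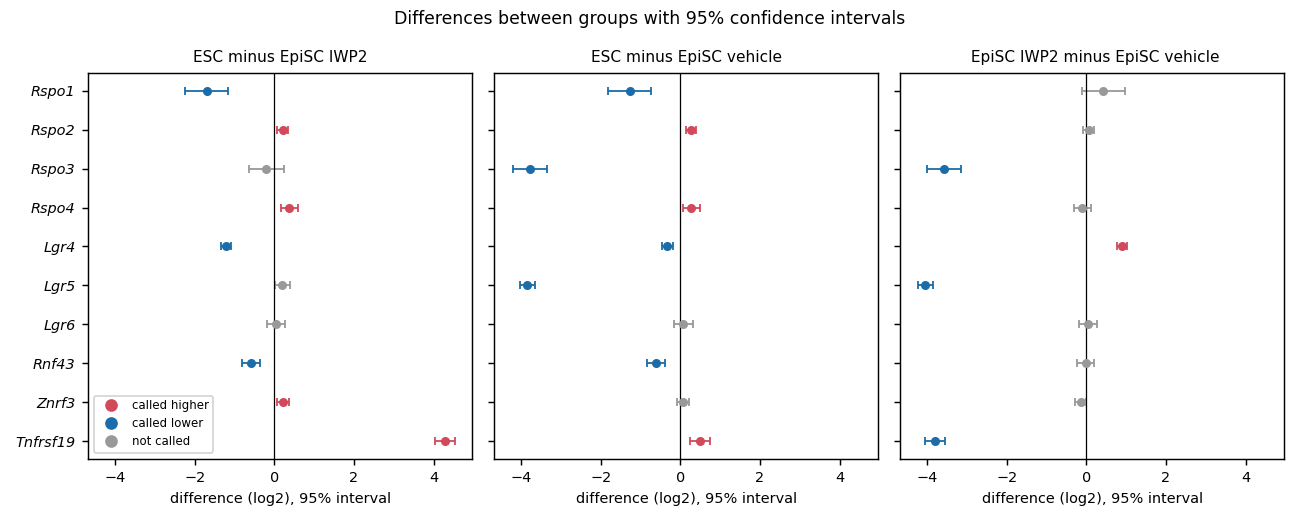
Difference in log2 signal of the 10 genes for ESC minus IWP2 EpiSC, ESC minus vehicle EpiSC and IWP2 EpiSC minus vehicle EpiSC. Points are limma estimates with 95% intervals, red for called higher, blue for called lower and grey for not called. Rspo3, Lgr5 and Tnfrsf19 lie between -3.58 and -4.05 in the right panel, where Lgr4 is the 1 gene called higher.

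With IWP2, 4 of the 10 genes were called, against 33.5% of all genes. Lgr4 was the 1 called higher (16.6% of all genes were), and Rspo3, Lgr5 and Tnfrsf19 were the 3 called lower (16.8% were). These 3 fell by at least 2-fold, a size that 3.72% of all genes reached in either direction with a call. Between ESCs and vehicle EpiSCs, 8 of the 10 were called, against 66.6% of all genes. Higher were Rspo2, Rspo4 and Tnfrsf19 (38.7% of all genes), and lower were Rspo1, Rspo3, Lgr4, Lgr5 and Rnf43 (27.9%). Of these, Rspo1, Rspo3 and Lgr5 were lower by at least 2-fold, against 16.5% of all genes changed by that much. Between ESCs and IWP2-treated EpiSCs, 7 were called, against 62.1% of all genes: Rspo2, Rspo4, Znrf3 and Tnfrsf19 higher (35.2%), and Rspo1, Lgr4 and Rnf43 lower (26.9%). Here Tnfrsf19, Rspo1 and Lgr4 differed by at least 2-fold, against 17.3%. The shares of members called in all 3 comparisons were thus near the shares of all genes. The median difference of the 10 genes was 0.12 for ESCs minus IWP2-treated EpiSCs, -0.13 for ESCs minus vehicle EpiSCs and -0.07 for IWP2 minus vehicle, beside 0.10, 0.12 and 0.03 over all genes. The 3 comparisons share groups and are not independent of each other.

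**Figure D3:**
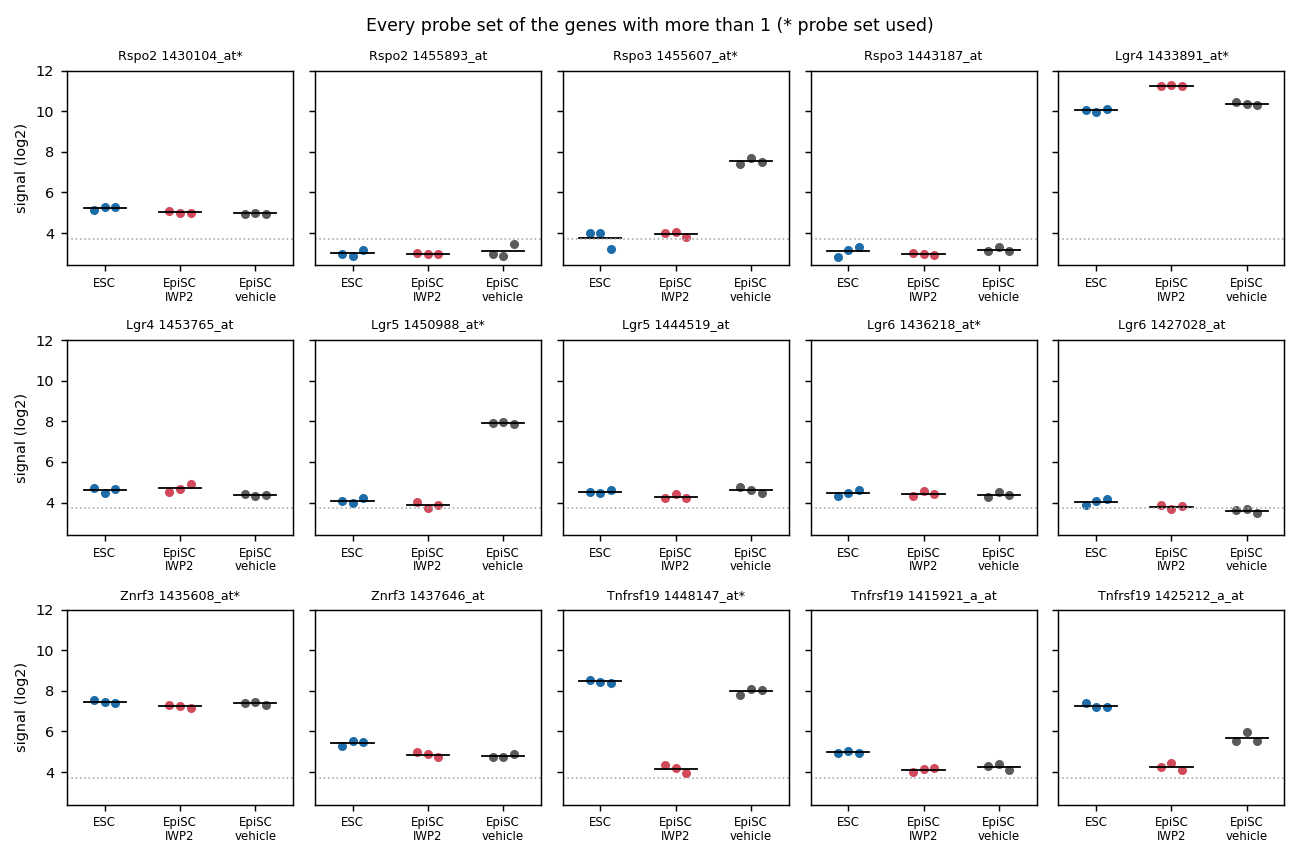
Signal (log2) on the 9 arrays for the 15 probe sets of the 7 genes that have more than 1, with ESCs left, IWP2-treated EpiSCs in the middle and vehicle EpiSCs right. Stars mark the probe set used for the gene. The second probe sets of Rspo3 and Lgr5 stay between 2.80 and 4.76 on all arrays, and the 3 of Tnfrsf19 differ in size.

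The 10 genes have 18 probe sets, and 7 genes have more than 1. Each gene was represented by the probe set with the highest mean, which left 8 as a check, tested among all 34945 probe sets with 1 symbol. With IWP2, 3 of the 8 were called (29.1% of all probe sets), against vehicle 5 were called in ESCs (62.3%), and against IWP2 also 5 (58.7%). For Tnfrsf19 a second probe set read 7.38, 7.20 and 7.21 in ESCs, 4.25, 4.45 and 4.10 with IWP2, and 5.55, 5.95 and 5.52 with vehicle. It fell with IWP2 by 1.41 ± 0.13 and was higher in ESCs than in vehicle EpiSCs by 1.59 ± 0.13 (limma adjusted p of 2.56e-05 and 1.62e-06), against differences of -3.80 and 0.49 on the first. The third, with means of 4.97, 4.12 and 4.26 in ESCs, IWP2 and vehicle, was called higher in ESCs than in vehicle EpiSCs (0.71 ± 0.09) and was not called with IWP2 (-0.14 ± 0.09). All 3 place ESCs above the vehicle EpiSCs, and which transcripts each probe set reads was not looked up.

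The second Lgr5 probe set had means of 4.53, 4.29 and 4.61 in ESCs, IWP2 and vehicle, and it also fell with IWP2, by only 0.32 ± 0.09 (limma adjusted p = 0.0221). On it ESCs were not called against vehicle EpiSCs (-0.08, adjusted p = 0.46) and were called higher than with IWP2 (0.24, adjusted p = 0.039). The second Rspo3 probe set had means of 3.09, 2.97 and 3.16 and was called in no comparison. The large falls of these genes with IWP2, and their large differences between ESCs and vehicle EpiSCs, therefore each rest on 1 probe set. As means over both sets the falls with IWP2 were -2.18 for Lgr5 and -1.88 for Rspo3. For Lgr4 the second probe set rose with IWP2 by 0.34 ± 0.10 (adjusted p = 0.028). Between ESCs and vehicle EpiSCs it was called higher (0.27 ± 0.10, adjusted p = 0.0415), opposite to the first, so the small Lgr4 difference between these groups depends on the probe set. The second Znrf3 probe set read 5.30, 5.55 and 5.47 in ESCs, 4.98, 4.87 and 4.73 with IWP2, and 4.73, 4.73 and 4.91 with vehicle. ESCs were above all EpiSC arrays on it, by 0.58 ± 0.09 against IWP2 and 0.65 ± 0.09 against vehicle (limma adjusted p of 0.000283 and 0.000131). On it, as on the first, IWP2 and vehicle did not differ by a call (0.07 ± 0.09). The second probe set of Lgr6 was called higher in ESCs than in vehicle EpiSCs (0.43 ± 0.09) and than with IWP2 (0.26 ± 0.09), and that of Rspo2 in no comparison.

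**Figure D4:**
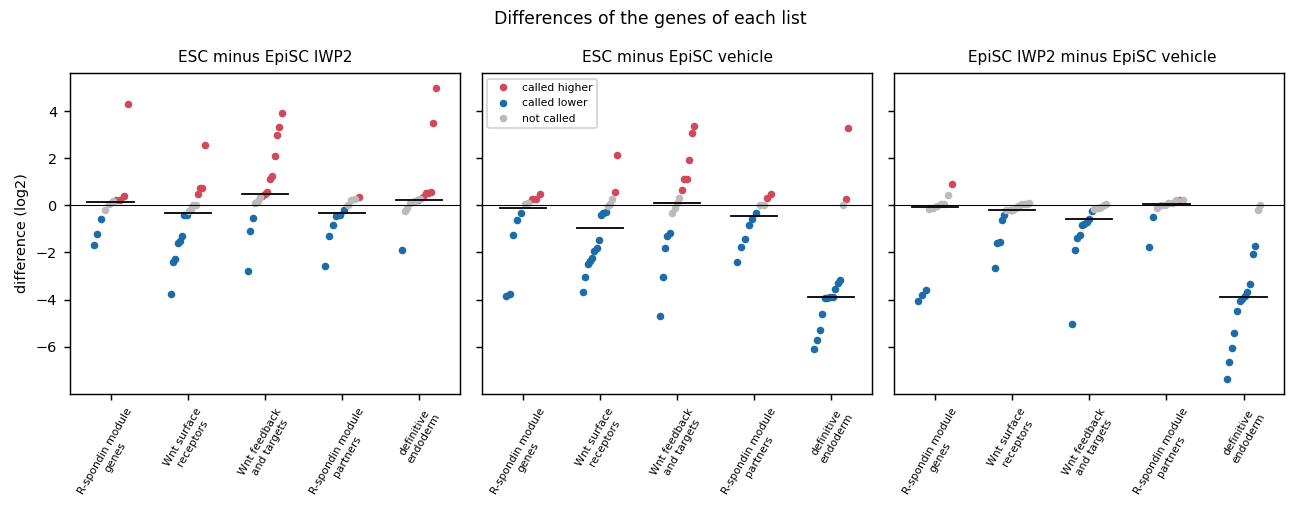
Difference (log2) of each gene of 5 lists in the 3 comparisons, ordered by size within a list, with red for called higher, blue for called lower and grey for not called. Black lines are list medians. With IWP2 the definitive endoderm markers have a median of -3.91 and the 10 R-spondin module genes one of -0.07.

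Other genes of the Wnt pathway were described by list. Of 16 measured Wnt surface receptor genes, 6 fell with IWP2 and 0 rose, where 16.8% of all genes fell and 16.6% rose (median -0.19, against 0.03 for all genes). The Frizzled genes Fzd5 (-2.68) and Fzd8 (-1.54) and the Wnt5a receptor gene Ror1 (-1.59) had the smallest p among them. The co-receptor gene Lrp6 was not called, with means of 7.76 in ESCs, 8.20 with IWP2 and 8.19 with vehicle, of which the ESC value was called lower than both. In ESCs, 11 receptor genes were lower and 2 higher than in vehicle EpiSCs, beside 27.9% and 38.7% of all genes. The median was -0.96, against 0.12, with Fzd3 at -2.36 and Ror2, higher, at 2.15. Against IWP2-treated EpiSCs, 8 were lower and 4 higher in ESCs, beside 26.9% and 35.2% of all genes. The median was -0.32, against 0.10, and among the called were Fzd2 (-3.76) and Fzd5, higher by 0.75.

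Of 15 measured Wnt feedback and target genes, 9 fell with IWP2 and 0 rose (median -0.60), beside 16.8% and 16.6% of all genes. The Wnt inhibitor genes Dkk1 (-5.05) and Wif1 (-1.39) and the transcription factor gene Sp5 (-1.88) had the smallest p. Wif1 had means below the lower quartile in all 3 groups, so its value is uncertain. Axin2, the usual feedback readout, averaged 7.75 ± 0.076 in ESCs, 5.66 ± 0.111 with IWP2 and 5.83 ± 0.153 with vehicle (SD, n = 3) and was not called with IWP2 (-0.16, limma adjusted p = 0.191). On the probe sets used, Lgr5, Rspo3 and Tnfrsf19 fell by over 3 units, beside 9 falls in this list and an uncalled Axin2. In ESCs, 6 of the list were higher than in vehicle EpiSCs and 5 lower, beside 38.7% and 27.9% of all genes. Notum (3.35) and Axin2 (1.92) were among the higher, and Dkk1 (-4.69) and Lef1 (-1.82) among the lower. Against IWP2-treated EpiSCs, 9 were higher and 3 lower in ESCs (median 0.47), beside 35.2% and 26.9% of all genes.

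Among 10 partners of the module, Sdc4, a syndecan that binds R-spondins in Xenopus, and Gpc3, a glypican, fell with IWP2 (-0.49 and -1.77), and Dvl2, of the Dishevelled family that links the ligases to Frizzled receptors, rose by 0.21. The other 7 were not called, so that 3 of 10 were called where 33.5% of all genes were. The median of the 10 was 0.05. Compared with vehicle EpiSCs, ESCs had 6 lower, led by Dvl1 (-2.39), Sdc4 (-1.79) and Gpc3 (-1.41), and 2 higher, Ndp, the gene of the Frizzled ligand Norrin (0.32, with means below the lower quartile in all groups), and Dvl3 (0.47). Against IWP2-treated EpiSCs, 6 were lower and 1, Gpc3 (0.36), was higher in ESCs. Of all genes, 26.9% were lower and 35.2% higher in ESCs than with IWP2, and 27.9% and 38.7% than in vehicle EpiSCs. The gene of the target of IWP2, Porcn, averaged 8.94 ± 0.09 in ESCs, 4.66 ± 0.155 with IWP2 and 5.66 ± 0.13 with vehicle (SD, n = 3), and it fell with IWP2 (-1.0, limma adjusted p = 3.57e-05).

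Definitive endoderm markers fell with IWP2, as Rspo3, Lgr5 and Tnfrsf19 did. Among primitive streak and mesoderm markers 6 fell and 1 rose, and the other marker lists held calls in both directions. Of all genes, 16.8% fell with IWP2 and 16.6% rose. In bulk RNA, fewer cells of a type and less RNA per cell cannot be told apart. Of 14 definitive endoderm markers, 12 fell with IWP2, each by at least 2-fold, and 0 rose (median -3.91), and Shh (-6.65), Hhex (-4.05) and Spink1 (-7.37) had the smallest p. Their summed linear signal was 410 to 430 on IWP2 arrays and 7245 to 7693 on vehicle arrays, with Cxcr4, Gsc and Spink1 below the lower quartile after IWP2. In ESCs it was 1041 to 1057, with Foxa1, Cxcr4 and Gsc below the quartile. Trh had the highest mean of the list in ESCs (9.31, against 4.33 with IWP2 and 6.04 with vehicle), so it weighed most in that sum. Of the 14, 11 were lower and 2, Trh and Ttr, higher in ESCs than in vehicle EpiSCs, beside 27.9% and 38.7% of all genes. Of 15 primitive streak and mesoderm markers, 6 fell with IWP2, 5 of them by at least 2-fold. Lhx1 (-6.98), Fgf8 (-2.70) and Eomes (-3.62) had the smallest p. Their list had a median of -0.01, with Tbx6 rising by 0.52 and 8 markers not called. The sums of the 15 were 493 to 509 in ESCs, 397 to 443 with IWP2 and 2183 to 2969 with vehicle. Lhx1, Wnt3 and Pdgfra were below the quartile in the first 2 groups and Tbx6 in ESCs and vehicle EpiSCs.

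Of 10 fibroblast and feeder cell markers, 4 fell with IWP2, Col3a1 (-2.30) with the smallest p, and 2 rose, Thy1 (0.72) and Dcn (0.78) (median -0.21). Their sums were 312 to 334 in ESCs, 1271 to 1394 with IWP2 and 2559 to 3630 with vehicle. Acta2 had the highest mean of the list in every group and weighed most in these sums. It averaged 6.47 in ESCs, 9.76 with IWP2 and 11.16 with vehicle. With IWP2, 4 of the markers were not called. Lum was below the quartile in ESCs and with IWP2. Of 9 neurectoderm markers 2 rose with IWP2, Ncam1 (0.89) and Tubb3 (0.73), and 2 fell, Hesx1 (-5.45) and Six3 (-1.70) (median 0.13). Hesx1 averaged 4.16 in ESCs, 3.15 with IWP2 and 8.60 with vehicle, and so was high in vehicle EpiSCs alone. The sums of the 9 were 693 to 733 in ESCs, 1260 to 1367 with IWP2 and 1370 to 1533 with vehicle. Neurog2 was below the quartile in all 3 groups and Hesx1 with IWP2. Of 6 pluripotent markers 3 rose with IWP2, Utf1 (0.54), Nanog (0.47) and Pou5f1 (0.31), and 3 fell, Sall4 (-0.92), Lin28a (-0.49) and Sox2 (-0.20). Their sums were 7995 to 8532 with IWP2 and 8360 to 8739 with vehicle. Of 8 primed epiblast markers 3 rose with IWP2, Sox3 (1.37), Zic2 (0.69) and Sox4 (0.32), and 3 fell, Cd24a (-1.96), Fgf5 (-2.48) and Otx2 (-0.59). Their sums were 16218 to 17004 with IWP2 and 24534 to 26357 with vehicle. The part of these cell types, and of the lower actin 3' minus 5' signal of the vehicle arrays, in the values of Rspo3, Lgr5 and Tnfrsf19 was not tested.

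**Figure D5:**
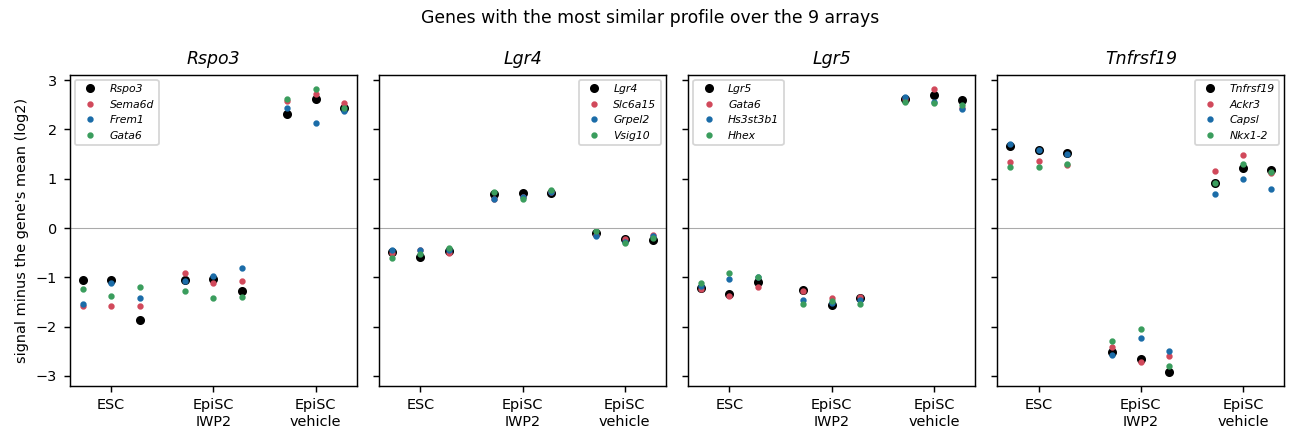
Signal minus the mean of the gene (log2) on the 9 arrays for Rspo3, Lgr4, Lgr5 and Tnfrsf19 (black) and the 3 genes with the most similar profile (coloured), with ESCs left, IWP2-treated EpiSCs in the middle and vehicle EpiSCs right. Gata6 follows Lgr5 with a root mean square difference of 0.09, and Ackr3 follows Tnfrsf19 with one of 0.23.

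Profiles were also compared over the 9 arrays by the root mean square difference between signals, each gene centred on its own mean, for the 5 members whose group means spanned at least 1 log2. Such a likeness over 3 groups describes these arrays only, and any gene high in 1 group resembles the others that are. Nearest to Lgr5 among 18192 genes were Gata6 (0.09), an endoderm transcription factor gene, Hs3st3b1 (0.15), a heparan sulfate sulfotransferase gene, and Hhex (0.19), a homeobox gene of endoderm. Gata6 averaged 4.39 in ESCs, 4.29 with IWP2 and 8.28 with vehicle. Rspo3 stood at rank 14 by this measure, with a difference of 0.35. Nearest to Rspo3 itself were Sema6d (0.29), a semaphorin gene, Frem1 (0.32), a gene of the basement membrane, and Gata6 (0.32), with Lgr5 at rank 11.

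Tnfrsf19 kept other company. Its nearest were Ackr3 (0.23), the gene of an atypical chemokine receptor, Capsl (0.26) and the homeobox gene Nkx1-2 (0.30), all with means of at least 6.58 in ESCs and in vehicle EpiSCs and of at most 3.32 with IWP2. Lgr5 stood at rank 13034 for Tnfrsf19, and Rspo3 at 14603. Profiles were centred but not scaled, so a gene that hardly varies can rank ahead of both. These ranks alone thus do not show an opposite profile, and all 3 genes were lower with IWP2 than with vehicle. Nearest to Lgr4 were Slc6a15 (0.07), an amino acid transporter gene, Grpel2 (0.08), a mitochondrial co-chaperone gene, and Vsig10 (0.08), and nearest to Rspo1 were Nhsl1 (0.19), Dnajb5 (0.20) and Tmem200a (0.22). The 3 members that fell with IWP2 followed 2 different profiles across the 3 groups, Lgr5 and Rspo3 low in ESCs and Tnfrsf19 high in them.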

How the data were processed

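Biotin-labelled cRNA from total RNA of 9 cultures was put on Affymetrix 430 2.0 mouse arrays, per the labels' protocols. The authors deposited log2 values for 45101 probe sets, made with RMA and limma, per the submitters' processing notes, which give no version. The arrays did not share 1 distribution: lower quartiles were 3.788 to 3.801 on ESC arrays and 3.664 to 3.692 on EpiSC arrays, and upper quartiles were 7.294 to 7.317 on ESC arrays and 7.415 to 7.45 on EpiSC arrays. No detection calls remain. Of the probe sets, 34945 had 1 gene symbol in the platform annotation and were used. 932 had several symbols, 9160 had none and 64 were controls. For each gene the brightest probe set by mean over all arrays was kept (18193 genes).

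limma 3.58.1, run under R 4.3.3, fitted 3 group means on the 9 arrays together, leaving 6 residual degrees of freedom and, once moderated by eBayes, 9.58. Two-sided p-values received the Benjamini-Hochberg adjustment, separately per comparison, across the 18193 genes. Adjusted p in the text are from limma. The median standard error of a difference was 0.082. The labels call the arrays biological replicates. The arrays give no depth, and 3 per group limit the precision.

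The members, the gene lists and the tests were chosen with earlier results of these data known, so lists are described by counts and medians with no set test. Named are all 10 members, of each list up to 3 called genes with the smallest p per direction, Axin2 and Porcn, and per member with a span of at least 1 log2 the 3 genes of nearest profile, without Riken clones, Gm models and probe sets ending in _x_at. Lrp6 and the markers below the quartile were picked outside this rule, after their values were seen. Alternatives were averaging the probe sets of a gene, dropping dim genes, adding 32 to linear signals, repeated quantile normalization, median centring, eBayes with trend and robust, fitting just 6 arrays, a stricter adjusted p of 0.01, a replicate block and leaving out each array. Adjusting over all probe sets was added after the data had been seen. Promoter sequences are RefSeq's, of GRCm38.p6.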

Additional observations from a re-analysis of the deposited data

How the results depend on the processing

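Lgr5, Rspo3, Tnfrsf19 and Lgr4 kept their direction and their call for IWP2 minus vehicle under every alternative that tested them. So did Lgr5 and Rspo3 for ESCs minus vehicle EpiSCs. Rspo3 was too dim on average for the filter. For these genes every alternative used the brightest probe set, alone or averaged with the others. On their own, the second Rspo3 set (-0.19 ± 0.12) and the third of Tnfrsf19 (-0.14 ± 0.09) were not called for IWP2 minus vehicle. Nor were the second sets of Lgr5 (-0.08) and Rspo3 (-0.07) for ESCs minus vehicle EpiSCs. The sizes moved: for IWP2 minus vehicle, means of probe sets gave -2.18 for Lgr5, -1.88 for Rspo3 and -1.78 for Tnfrsf19, and an offset of 32 gave -2.56, -2.19 and -2.50 for the same genes. Among genes above the median signal, which leaves 4 of the 10, 4 were called for ESCs minus IWP2 EpiSCs and 3 for ESCs minus vehicle EpiSCs. The other 6 members were not tested there, and the first count includes a call gained by Lgr5 (adjusted p = 0.0431). Without single arrays the called members numbered 6 to 8 for ESCs minus IWP2 EpiSCs, 7 to 8 for ESCs minus vehicle EpiSCs and 4 to 5 for IWP2 minus vehicle. Values that changed sign were all small and not called. Lgr6 was -0.0358 for ESCs minus IWP2 EpiSCs and -0.0102 for ESCs minus vehicle EpiSCs with quantile normalization repeated, and Rspo2 was -0.0311 for IWP2 minus vehicle as the mean of its probe sets; the causes were not tested. Leaving out single arrays gave Lgr6 -0.048 to 0.12 for ESCs minus IWP2 EpiSCs, -0.0119 to 0.16 for ESCs minus vehicle EpiSCs and -0.0255 to 0.11 for IWP2 minus vehicle. It gave Rnf43 -0.0801 to 0.0469 for IWP2 minus vehicle and Rspo3 -0.34 to 0.0659 for ESCs minus IWP2 EpiSCs. As means of their probe sets, Lgr4 lost its call for ESCs minus vehicle EpiSCs (-0.03, limma adjusted p = 0.715) and Znrf3 gained one (0.36, adjusted p = 0.000363), Lgr5 gained one for ESCs minus IWP2 EpiSCs (0.22, adjusted p = 0.0132), while Rspo2 lost its calls for ESCs minus IWP2 EpiSCs (0.12, adjusted p = 0.211) and minus vehicle EpiSCs (0.0888, adjusted p = 0.338) and Lgr6 gained one for ESCs minus vehicle EpiSCs (0.25, adjusted p = 0.0159). Same-numbered arrays of different groups did not deviate together (correlations of -0.06 to 0.051 over 9 pairs). These values gave no sign of pairing by number, but with 3 arrays per group they cannot exclude it. With a replicate block 7, 7 and 4 members were called for ESCs minus IWP2 EpiSCs, ESCs minus vehicle EpiSCs and IWP2 minus vehicle, Rspo4 against vehicle losing its call (adjusted p = 0.0529). Signals near the lower quartile limit what can be said of Rnf43, Rspo4 and Lgr6 in all groups. They also limit it for Rspo3 and Lgr5 in ESCs and with IWP2, for Rspo1 in ESCs and for Tnfrsf19 with IWP2.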
